A study of Mus musculus with 6 samples.

Results

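The genes of the proteasome outside its inducible immune form were compared between WT and AMPK KO CD4 T cells. Members were all listed symbols that begin with Psm, a letter from a to g and a digit, less the immunoproteasome genes Psmb8, Psmb9 and Psmb10. The pattern took 50 symbols of the 23282 gene lines in each library, and 47 remained. By name, 8 code for the alpha ring and 8 for the beta ring of the 20S core, 6 for the ATPases and 11 for the other subunits of the 19S cap, 7 for assembly factors, and 6 for activators and the regulator Psmf1. The last, Psmc3ip, is a cofactor of meiotic recombination and no proteasome subunit, and it is kept apart. The rule reads gene symbols only.

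The mice were on the C57BL/6 strain and 6 to 8 weeks old. WT mice carried Prkaa1fl/fl without Cre, and AMPK KO mice carried Prkaa1fl/fl with CD4Cre, a transgene that deletes floxed DNA in cells that have expressed CD4. Both groups thus share the floxed allele of Prkaa1, which codes for the alpha 1 catalytic subunit of AMPK, an energy-sensing kinase, and the gene of the alpha 2 subunit was not targeted. CD4 T cells were taken from spleen and lymph nodes, rested for 1 h in RPMI medium and then stimulated through CD3 and CD28 with antibodies at 2 µg/mL. The stimulation lasted 24 h by the sample labels and 6 h by the methods of the study. Each genotype has 3 samples, read by QuantSeq, which sequences the 3′ ends of transcripts.

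The proteasome degrades proteins that have been marked with ubiquitin. Its core is a barrel of stacked rings, in which outer alpha rings gate the entry and inner beta rings hold the protease sites, and the 19S cap recognises ubiquitin, unfolds the substrate and feeds it in. Activators bind to the core in place of the cap, and T cells need the proteasome for antigen receptor signalling, for division and for the turnover of short-lived regulators. In many cell types the subunit genes are transcribed in a coordinated way.

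The libraries held 9575122 to 10168038 reads on genes in WT and 10515321 to 11185353 in AMPK KO. Rn45s, the precursor of ribosomal RNA, took 20.7% to 24.9% of them in WT and 8.48% to 10.8% in AMPK KO. The targeted gene Prkaa1 had log2 values of 4.64, 5.24 and 4.86 in WT and 4.08, 4.72 and 4.67 in AMPK KO, which overlap, so its level did not separate the genotypes. Reads at the 3′ end need not fall in the floxed DNA, so this level is no check on the deletion. Xist, expressed from the inactive X chromosome of female cells, had 8 to 32 reads per WT library but 1998 to 2876 per AMPK KO library, and the 4 Y-linked genes examined were lower in AMPK KO by 0.75 to 1.42 on the log2 scale but present in all 6 libraries. The study states that its mice were female, so the Y-linked transcripts go against that statement in every library, and sex-linked transcripts differ with genotype. All 6 CD4 T cell markers were detected in every library and had negative fold changes, with summed levels of 1525 to 1737 CPM (reads scaled to library size) in WT and 1081 to 1388 in AMPK KO, and 3 of them fell (Cd3e, Cd3g and Cd28; limma, adjusted p under 0.05). All 5 myeloid markers had positive fold changes and 2 of them rose in limma, with summed levels of 199.9 to 253 CPM in WT and 342 to 629 in AMPK KO. The 3 plasma cell markers summed to 82.4 to 83.5 CPM in WT and 363 to 439.6 in AMPK KO, and 1 of them rose in limma. Both CD8 T cell markers had positive fold changes with an unadjusted p under 0.05, and summed to 231 to 305 CPM in WT and 321 to 376 in AMPK KO, but limma called 0 of them. It also called 0 of the markers of B cells, neutrophils, NK cells and erythroid cells, 2 of which had an unadjusted p under 0.05. Of 8 genes of T cell activation it called 2, Tnfrsf9 and Tfrc, both higher. Of the 8, 5 had negative fold changes, among them Mki67 (−0.68) and Myc (−0.88), whose groups did not overlap, and the median was −0.10. None of these lists held a gene at 0 in every library. The part of these differences in the proteasome values was not tested, and in bulk RNA fewer cells of a type and less RNA per cell cannot be told apart.

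No proteasome gene passed the test between the genotypes. Of the 46 members with a mean log2 value of at least 1, 0 had an adjusted p under 0.05 in limma, where 5.65% of all 11279 tested genes did, and voom on the recovered reads also called 0. At an unadjusted p under 0.05, 8 members were higher in AMPK KO (background 10.6%) and 0 were lower (background 10.7%), which is 17.4% and 0% of the members. In 9 members all AMPK KO values lay above all WT values (background 11.6%), and in 0 they lay below (background 14%), which is 19.6% and 0% of the members. Psme2 and its close copy Psme2b, which may share reads, are both among the 8 and both among the 9. The fold change was positive in 32 of 46 members (69.6%) and negative in 14, compared with 51.2% positive among all tested genes. The median log2 fold change of the members was 0.17, compared with 0.02 for all tested genes. Because the samples are few, an exact two-sided permutation test of a single gene cannot give a p below 0.1 here.

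The median standard error of a member's log2 fold change was 0.20, compared with 0.28 over all tested genes. The median within-group SD was 0.28, compared with 0.32, and neither comparison is matched for level of expression. For 39 of the 46 members the 95% confidence interval lay wholly between −1 and 1 in log2 units (84.8%, compared with 54.7% of all tested genes). For 38 members the interval included 0 (82.6%, compared with 78.7%). The remaining 8 had intervals above 0, and these are the members with an unadjusted p under 0.05.

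**Figure D1:**
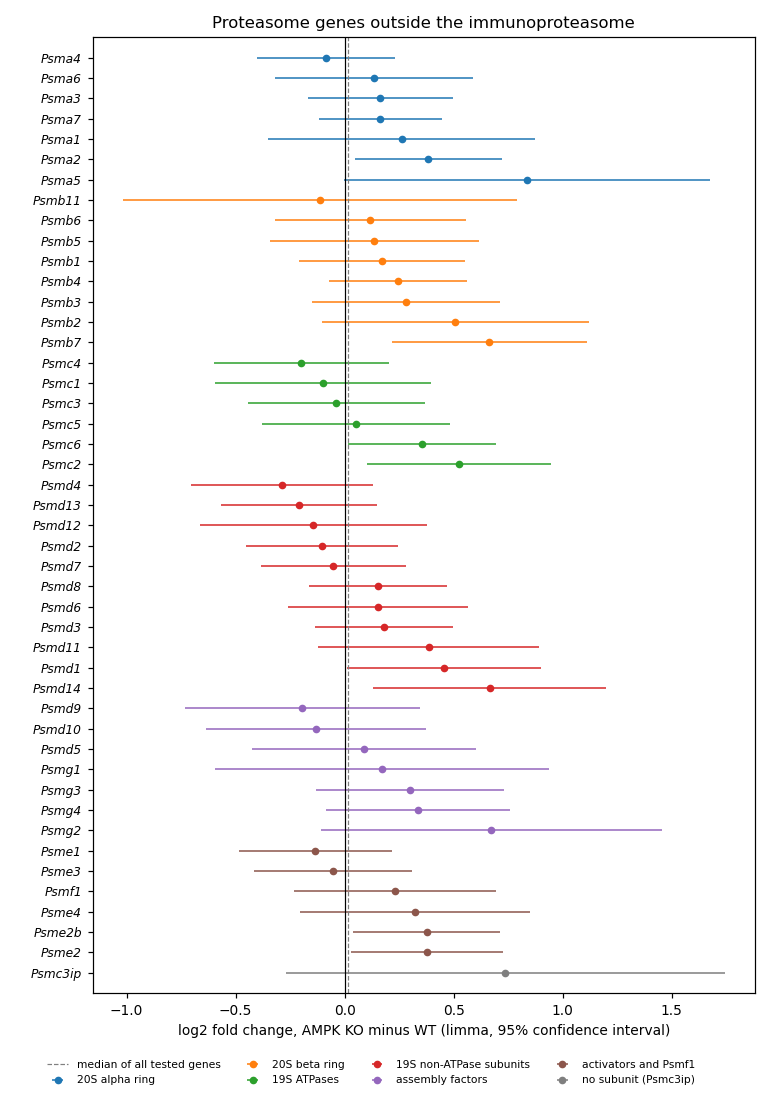
Log2 fold change of each tested member, AMPK KO minus WT, from limma. Points are estimates, bars are 95% confidence intervals, colours mark roles, and the dashed line is the median of all tested genes (0.02). Most points lie right of 0, from −0.29 (Psmd4) to 0.84 (Psma5), and 38 of 46 bars cross 0.

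The alpha ring had 6 of 7 tested genes with a positive fold change and a median of 0.16. Psma5 had the largest fold change of the ring and of all members. Its log2 values were 2.97, 3.12 and 2.41 in WT and 3.82, 2.86 and 4.33 in AMPK KO. Sample 2 of AMPK KO lay below the WT samples 1 and 2, so the groups overlapped. The log2 fold change of 0.84 (standard error, SE, 0.39) gave an adjusted p of 0.235 in limma, and the gene had between 38 and 228 reads per library, fewer than most members. This fold change ranged from 0.50 without AMPK KO sample 3 to 1.24 without AMPK KO sample 2. Psma5 lies at chr3:108256926-108279974 on the plus strand (mm10), and 1700010K24Rik overlaps it on the opposite strand.

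At the other end of the ring stood Psma4, at chr9:54950790-54958030 on the plus strand. In log2 units the samples stood at 7.70, 7.31 and 7.36 in WT and 7.40, 7.34 and 7.36 in AMPK KO. The AMPK KO values lay within the WT range, and the log2 fold change was −0.09 (SE 0.15, adjusted p = 0.784 in limma). Without WT sample 1, the highest of the 6, it was 0.03. Psma2 reached an unadjusted p of 0.0287 with a log2 fold change of 0.38 (adjusted p = 0.177 in limma). Psma7 was the ring's only gene whose groups did not overlap, by 8.353 in the highest WT sample against 8.354 in the lowest AMPK KO sample.

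Psma8, which codes for an alpha subunit of germ cell proteasomes, was not tested. It had 0 reads in all 3 WT libraries and in AMPK KO sample 1. AMPK KO samples 2 and 3 had 7 and 6 reads, the log2 values being 0.72 and 0.59.

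The beta ring holds the active sites, and among its 3 catalytic genes AMPK KO sample 2 was the highest of its group in Psmb5 and Psmb6 and the lowest in Psmb7. In the ring as a whole, 7 of 8 genes had a positive fold change, with a median of 0.21, which was 0.050 without AMPK KO sample 2 and 0.096 without WT sample 2. Psmb7, the trypsin-like subunit, had the lowest adjusted p of all members. Log2 values were 5.63, 6.22 and 5.52 in WT and 6.63, 6.13 and 6.60 in AMPK KO. WT sample 2 exceeded AMPK KO sample 2, and the other AMPK KO samples were higher than every WT sample. This gave a log2 fold change of 0.66 (SE 0.21, 95% confidence interval 0.22 to 1.11), with an adjusted p of 0.0778 in limma and an exact permutation p of 0.2.

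Psmb5, the chymotrypsin-like subunit, had log2 values of 5.99, 5.80 and 5.84 in WT and 5.75, 6.60 and 5.69 in AMPK KO. The AMPK KO group had both the highest value, in sample 2, and the 2 lowest. The resulting log2 fold change was 0.14 (95% confidence interval −0.34 to 0.62, adjusted p = 0.774 in limma). Without AMPK KO sample 2 it was −0.16.

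Psmb6, the caspase-like subunit, had log2 values of 6.92, 6.55 and 6.90 in WT and 6.74, 7.41 and 6.57 in AMPK KO. AMPK KO sample 2 again stood above all other samples, and the remaining AMPK KO values lay within the WT range. The log2 fold change was 0.12 (95% confidence interval −0.32 to 0.56, adjusted p = 0.787 in limma), and it was −0.13 without AMPK KO sample 2. Psmb5 lies at chr14:54614119-54618022 (minus strand), Psmb6 at chr11:70525367-70527858 (plus strand) and Psmb7 at chr2:38588036-38644087 (minus strand), where Nek6 overlaps Psmb7 on the opposite strand. GENCODE lists processed pseudogenes named after all 3 (Psmb5-ps, Psmb6-ps, Psmb6-ps2 and Psmb7-ps2), and whether reads were shared with them was not tested.

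The smallest fold change of the beta ring was that of Psmb11, the subunit of thymic cortical epithelium. It had 14 to 27 reads per library, and its log2 values were 1.85, 1.26 and 1.43 in WT and 1.23, 1.26 and 1.71 in AMPK KO. The groups overlapped, and the log2 fold change of −0.11 (adjusted p = 0.911 in limma) was 0.05 without WT sample 1. Psmb4 was the ring's gene without overlap between the groups, with a log2 fold change of 0.24 (adjusted p = 0.369 in limma) that was 0.14 without AMPK KO sample 2.

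**Figure D2:**
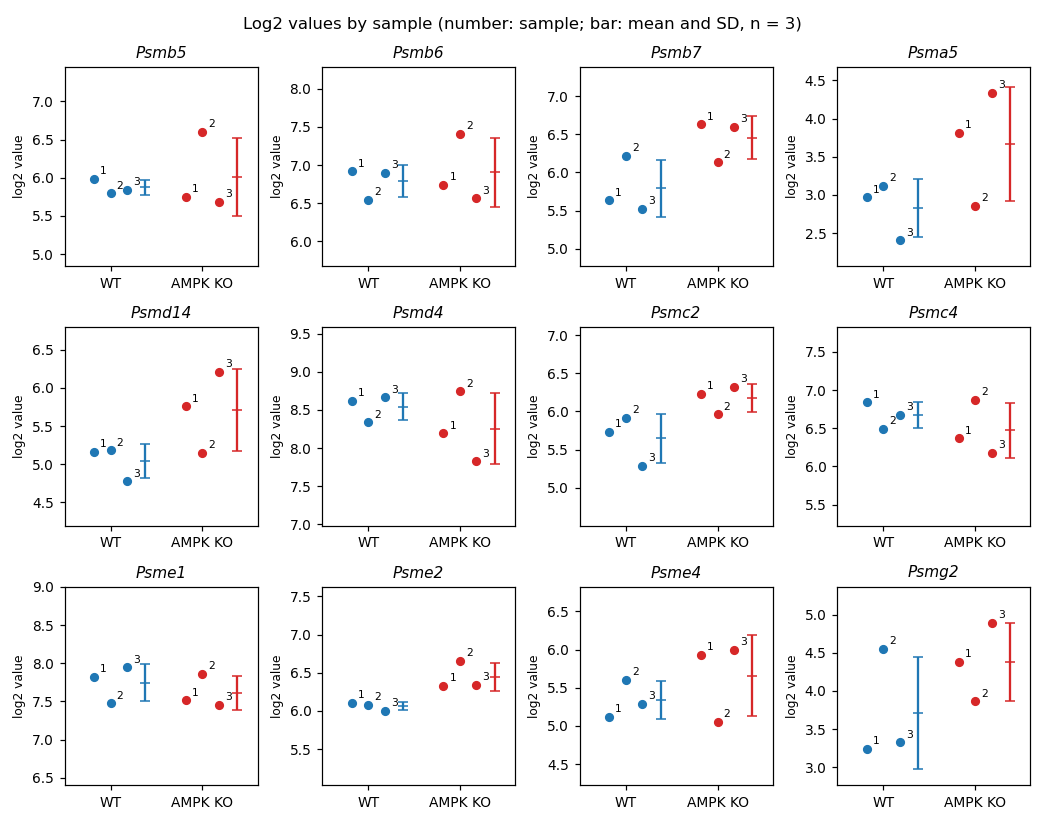
Log2 values of 12 members by sample. Each numbered point is a sample, and the bar beside each group is the mean and SD (n = 3); all panels span the same range of log2 units, placed around each gene's values. In Psmb5, Psmb6, Psmd4 and Psmc4 AMPK KO sample 2 is the highest of its group, while in Psmb7, Psma5, Psmd14 and Psme4 it is the lowest, and only Psmc2 and Psme2 have groups that do not overlap.

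The 6 ATPases of the cap, which form the ring that unfolds substrates, were balanced in direction. A positive fold change was seen in 3 and a negative one in 3, with a median of 0.01, which ranged from −0.16 without AMPK KO sample 2 to 0.12 without WT sample 3. Psmc2 had log2 values of 5.73, 5.92 and 5.29 in WT and 6.23, 5.96 and 6.32 in AMPK KO. All AMPK KO samples were above all WT samples, sample 2 by a small margin, and the log2 fold change was 0.53 (SE 0.20, adjusted p = 0.136 in limma) and 0.35 without WT sample 3. Psmc4 had log2 values of 6.84, 6.50 and 6.68 in WT and 6.37, 6.87 and 6.18 in AMPK KO. Here AMPK KO sample 2 was the highest of the 6 and the other AMPK KO samples were the lowest, with a log2 fold change of −0.20 (SE 0.19, adjusted p = 0.587 in limma), which ranged from −0.40 without AMPK KO sample 2 to −0.052 without AMPK KO sample 3. Psmc6 was the other ATPase gene without overlap, with a log2 fold change of 0.35 (unadjusted p = 0.0419, adjusted p = 0.215 in limma). Psmc2 lies at chr5:21785283-21803787 on the plus strand and Psmc4 at chr7:28041707-28050101 on the minus strand.

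Among the 11 other subunits of the cap, 6 had a positive and 5 a negative fold change, with a median of 0.15, which was 0.055 without AMPK KO sample 2. Psmd14, the deubiquitinase that removes ubiquitin chains as the substrate enters, had the largest. Log2 values were 5.16, 5.18 and 4.78 in WT and 5.76, 5.15 and 6.21 in AMPK KO. Sample 2 of AMPK KO lay among the WT values and the other AMPK KO samples above them. The log2 fold change was 0.67 (SE 0.25, 95% confidence interval 0.13 to 1.20), with an adjusted p of 0.138 in limma and an exact permutation p of 0.3, and it was 0.41 without AMPK KO sample 3.

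Psmd4, a ubiquitin receptor, had the most negative fold change of all members. Its log2 values were 8.62, 8.34 and 8.66 in WT and 8.19, 8.74 and 7.83 in AMPK KO. AMPK KO sample 2 was the highest of the 6 and the other AMPK KO samples were the lowest. The resulting log2 fold change was −0.29 (SE 0.20, 95% confidence interval −0.70 to 0.13, adjusted p = 0.432 in limma), and it ranged from −0.53 without AMPK KO sample 2 to −0.073 without AMPK KO sample 3. Psmd1, a scaffold subunit, had a log2 fold change of 0.46 (unadjusted p = 0.0454, adjusted p = 0.223 in limma), and Psmd3 was the subunit without overlap between the groups, with a log2 fold change of 0.18 (adjusted p = 0.516 in limma) that was 0.10 without WT sample 1. Psmd14 lies at chr2:61711694-61800376 on the plus strand and Psmd4 at chr3:95032694-95042614 on the minus strand.

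For the core as a whole, 13 of 15 tested genes had a positive fold change and the median was 0.17. For the cap, this was 9 of 17 with a median of 0.05. With 1 library left out, the core median ranged from 0.11 without AMPK KO sample 2 to 0.29 without AMPK KO sample 3, and the cap median from −0.0045 without AMPK KO sample 2 to 0.14 without AMPK KO sample 1. The difference between core and cap was not tested.

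The assembly factors are chaperones that are absent from the finished proteasome, and 5 of 7 had a positive fold change, with a median of 0.17, which ranged from 0.11 without AMPK KO sample 1 to 0.29 without WT sample 1 and was 0.062 after quantile normalization. Psmg2, which acts with Psmg1 in building the alpha ring, had log2 values of 3.24, 4.56 and 3.33 in WT and 4.39, 3.87 and 4.89 in AMPK KO. WT sample 2 exceeded 2 of the AMPK KO samples. With these values the log2 fold change was 0.67 (SE 0.37, adjusted p = 0.311 in limma), from 78 to 341 reads per library, and ranged from 0.42 without AMPK KO sample 3 to 1.10 without WT sample 2. Psmd9, a chaperone of the ATPase ring at chr5:123169413-123250131, had log2 values of 5.26, 4.90 and 4.71 in WT and 4.34, 5.18 and 4.76 in AMPK KO. The groups overlapped and the log2 fold change was −0.20 (SE 0.25, adjusted p = 0.705 in limma), while without AMPK KO sample 1 it was 0.01. Hpd and 2 gene models overlap Psmd9 on the opposite strand. Psmg3 and Psmg4 had groups without overlap, with log2 fold changes of 0.30 and 0.34 (adjusted p = 0.423 and 0.352 in limma), and that of Psmg3 was 0.16 without WT sample 3.

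The activators and Psmf1 had a median of 0.28, with 4 of 6 positive. Psme2, a subunit of the interferon-inducible activator ring, had log2 values of 6.11, 6.08 and 6.00 in WT and 6.33, 6.65 and 6.34 in AMPK KO. All AMPK KO samples exceeded all WT samples. The log2 fold change was 0.38 (SE 0.16, unadjusted p = 0.0355, adjusted p = 0.197 in limma), with an exact permutation p of 0.1. Its partner in the same ring, Psme1, had log2 values of 7.82, 7.47 and 7.95 in WT and 7.52, 7.86 and 7.46 in AMPK KO. These overlapped, and the log2 fold change was −0.13 (SE 0.16, adjusted p = 0.686 in limma), ranging from −0.27 without WT sample 2 to −0.034 without WT sample 3.

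Psme2b is an intronless copy of Psme2 on another chromosome (chr11:48945354-48946190, minus strand), and reads of such close copies may be shared between them. In log2 units the samples stood at 6.94, 7.42 and 7.01 in WT and 7.45, 7.45 and 7.60 in AMPK KO. The groups did not overlap, and the log2 fold change of 0.38 (adjusted p = 0.184 in limma) was close to that of Psme2. The values of both are uncertain because reads may be shared. Gm12185 and 9930111J21Rik1 overlap Psme2b on the same strand, so its reads may also come from these genes, which was not tested. Psme2 and Psme2b both enter the median and the summed level of their role. Psme2 lies at chr14:55587441-55591113 (minus strand) and Psme1 at chr14:55578123-55581529 (plus strand), where Emc9 overlaps Psme1 on the opposite strand.

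The nuclear activators are Psme3 and Psme4, and the difference between them was not tested. Psme3 had log2 values of 5.81, 5.71 and 5.79 in WT and 5.84, 5.66 and 5.65 in AMPK KO. The 6 values lay close together, and the log2 fold change was −0.05 (95% confidence interval −0.42 to 0.31, adjusted p = 0.896 in limma). Psme4 had log2 values of 5.12, 5.61 and 5.29 in WT and 5.93, 5.05 and 6.00 in AMPK KO. AMPK KO sample 2 was the lowest of the 6 while the other AMPK KO samples were the highest, and the log2 fold change was 0.32 (SE 0.25, adjusted p = 0.485 in limma), ranging from 0.16 without AMPK KO sample 3 to 0.63 without AMPK KO sample 2. Psmf1, which binds the core and was first described as its inhibitor, had log2 values of 5.48, 4.81 and 5.23 in WT and 5.33, 5.63 and 5.25 in AMPK KO. WT sample 1 lay within the AMPK KO range, and the log2 fold change was 0.23 (SE 0.22, adjusted p = 0.580 in limma), ranging from 0.050 without WT sample 2 to 0.38 without WT sample 1. Psme3 lies at chr11:101316213-101323537 and Psme4 at chr11:30771726-30880361, both on the plus strand, and Psmf1 at chr2:151715812-151744186 on the minus strand.

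Psmc3ip had few reads, 10 to 65 per library. Its log2 values were 1.06, 2.61 and 1.24 in WT and 2.54, 1.89 and 2.69 in AMPK KO. WT sample 2 lay among the AMPK KO values, and the log2 fold change of 0.74 (SE 0.47) had an adjusted p of 0.396 in limma and ranged from 0.45 without WT sample 1 to 1.22 without WT sample 2. Without this gene the median of the members was 0.16.

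The summed level of each role, in CPM as normalized by the authors, is a relative measure of its transcripts. Cap subunits with other symbols, such as Adrm1 and Shfm1, are not in these sums. The alpha ring summed to 930.1, 922 and 864 CPM in WT and 1024, 1061 and 1001 in AMPK KO, that is 905 ± 36.2 and 1029 ± 29.9 (SD, n = 3). The activators and Psmf1 summed to 551 ± 13.2 CPM in WT and 608 ± 24.6 in AMPK KO (SD, n = 3). In both roles every AMPK KO sample exceeded every WT sample, and the activator sum counts both Psme2 and Psme2b, which may share reads. The beta ring summed to 839.6, 806 and 897 CPM in WT and 902, 1243 and 887 in AMPK KO, so that its mean difference rested mainly on AMPK KO sample 2. The other cap subunits had nearly equal mean sums, 1234 ± 2.54 CPM in WT and 1238 ± 105 in AMPK KO (SD, n = 3). AMPK KO samples 1 and 3 (1202 and 1157) lay below every WT sample there, and sample 2 (1357) lay above them. The ATPases summed to 539, 447 and 505 CPM in WT and 473, 635 and 467 in AMPK KO, that is 497 ± 46.8 and 525 ± 95.2. Only AMPK KO sample 2 exceeded the highest WT sample in this role. Over all 47 members the sums were 4258, 4137 and 4225 CPM in WT and 4372, 5135 and 4303 in AMPK KO. AMPK KO sample 2 stood above the other 5 libraries, and sums are weighted to the genes with the highest levels, so no test was made on them.

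**Figure D3:**
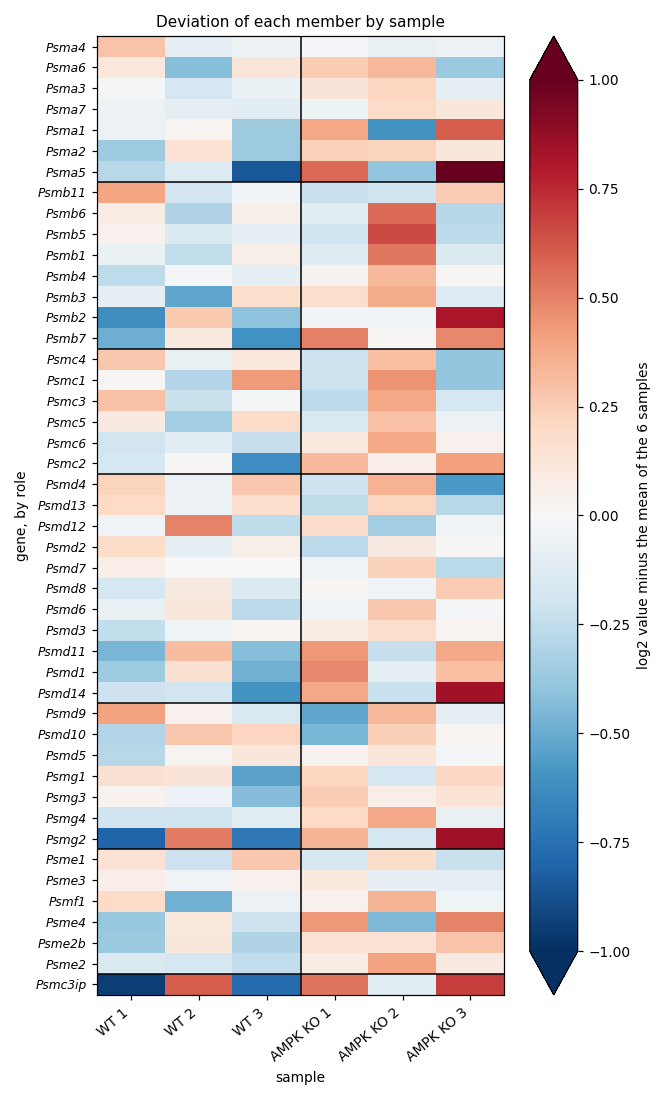
Deviation of each tested member, by sample, from its mean over the 6 samples, in log2 units; rows are genes ordered by role (horizontal lines) and then by fold change, and the vertical line divides WT from AMPK KO. The colour scale ends at −1 and 1. AMPK KO sample 2 is red over much of the beta ring and the ATPases, where its median deviations are 0.35 and 0.34, and blue in genes such as Psma1, Psma5 and Psme4.

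The deviation of sample 2 inside each genotype often exceeded the difference between genotypes. This comparison is uneven, because 1 sample set against its fellows varies more than a difference between group means. Such shares are high even without a genotype effect, so they are given beside those of all tested genes. In 33 of 46 members (71.7%, compared with 55.3% of all tested genes) AMPK KO sample 2 differed from the mean of its fellow samples by more than the log2 fold change. In 30 members (65.2%, compared with 50.8%) WT sample 2 did so within its own group. The members fell mainly into 2 arrangements, which were seen in the values and are described without a test. In 12 members WT sample 2 was above both other WT samples and AMPK KO sample 2 was below both other AMPK KO samples, among them Psmb7, Psma5, Psma1, Psmc2, Psmd14, Psme4, Psmg2 and Psmc3ip. In 15 members the opposite held, among them Psmb5, Psmb6, Psmb1, Psmc4, Psmd4, Psme1 and Psmf1. Together these are 58.7% of the members, compared with 39.1% of all tested genes. Across the 46 members the deviation of WT sample 2 and that of AMPK KO sample 2 had a correlation of −0.71, compared with −0.32 across all tested genes. Genes of 1 library share its preparation and are not independent.

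**Figure D4:**
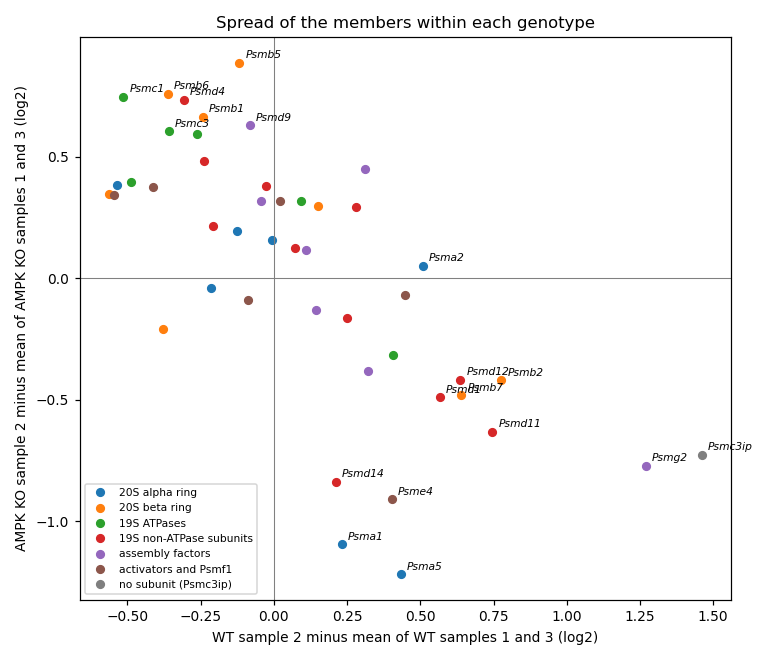
Deviation of WT sample 2 from the mean of WT samples 1 and 3 (horizontal) against the same for AMPK KO sample 2 (vertical), both in log2 units, 1 point per tested member, coloured by role. Points run from the upper left (Psmb6, Psmd4 and Psmc1) to the lower right (Psmg2 and Psmc3ip), with a correlation of −0.71 over 46 genes.

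Base composition near the 3′ end, where QuantSeq reads fall, moved with these arrangements. The median GC content of the last 500 bases of the transcript was 45.3% in the 12 members with WT sample 2 high and 51.8% in the 15 with AMPK KO sample 2 high. Over the 46 members, Spearman's rho of this GC content was −0.31 with the deviation of WT sample 2 and 0.39 with that of AMPK KO sample 2. Over the 10837 tested genes with a transcript sequence the values were −0.18 and 0.30. The part of base composition in the fold changes was not tested.

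The calls depended on these same samples. Without WT sample 2, limma called 2 members higher in AMPK KO (background 6.45%), Psma2 with a log2 fold change of 0.55 (adjusted p = 0.0431) and Psmb7 with 0.88 (adjusted p = 0.0227). Without AMPK KO sample 2 it called 6 of 46 members (background 11%). Of these, 5 were higher, namely Psma5 at 1.24 (adjusted p = 0.0345), Psmd14 at 0.94 (adjusted p = 0.00891), Psmb7 at 0.82 (adjusted p = 0.0126), Psmc2 at 0.63 (adjusted p = 0.0474) and Psme4 at 0.63 (adjusted p = 0.0494), and Psmd4 was lower at −0.53 (adjusted p = 0.0203), all in limma. The share of the members called stayed near that of all genes in each case, and under every other setting tried 0 members were called.

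Promoter sequences are shown for genes of both arrangements: Psmb5, Psmb6 and Psmd4, in which AMPK KO sample 2 was high, and Psmd14, the cap deubiquitinase, in which it was low. Each is a window of 300 bases from RefSeq (GRCm38.p6, the same coordinates as mm10), from 250 bases before to 50 bases after the annotated start, written 5′ to 3′ on the strand of the gene. Capitals mark matches, on either strand, to TGACNNNGC, the core of the antioxidant response element that also binds NFE2L1, a factor known to activate proteasome genes, to CCAAT, the box bound by NF-Y, and to CCGGAAG, a motif of ETS factors. TGACGTCA, the cAMP response element, was searched as well.
Psmb5 promoter, chr14:54617946-54618245, minus strand: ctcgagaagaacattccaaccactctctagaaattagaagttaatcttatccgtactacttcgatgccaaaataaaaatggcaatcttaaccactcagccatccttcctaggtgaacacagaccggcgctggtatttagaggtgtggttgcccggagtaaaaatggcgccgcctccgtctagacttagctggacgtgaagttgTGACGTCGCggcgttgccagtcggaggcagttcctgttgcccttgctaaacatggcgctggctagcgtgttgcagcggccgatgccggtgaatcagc
Psmb6 promoter, chr11:70525107-70525406, plus strand: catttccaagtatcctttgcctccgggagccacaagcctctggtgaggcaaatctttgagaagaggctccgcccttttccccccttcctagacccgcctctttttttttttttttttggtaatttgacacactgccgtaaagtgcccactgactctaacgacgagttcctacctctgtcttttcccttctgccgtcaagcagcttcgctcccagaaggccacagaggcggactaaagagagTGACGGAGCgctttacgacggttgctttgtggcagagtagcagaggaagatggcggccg
Psmd4 promoter, chr3:95042565-95042864, minus strand: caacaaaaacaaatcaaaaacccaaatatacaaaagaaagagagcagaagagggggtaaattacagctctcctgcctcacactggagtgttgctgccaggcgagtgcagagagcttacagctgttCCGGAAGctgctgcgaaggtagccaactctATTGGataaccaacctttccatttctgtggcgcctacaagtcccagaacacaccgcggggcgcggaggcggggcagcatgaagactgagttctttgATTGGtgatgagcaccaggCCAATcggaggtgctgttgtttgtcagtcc
Psmd14 promoter, chr2:61711444-61711743, plus strand: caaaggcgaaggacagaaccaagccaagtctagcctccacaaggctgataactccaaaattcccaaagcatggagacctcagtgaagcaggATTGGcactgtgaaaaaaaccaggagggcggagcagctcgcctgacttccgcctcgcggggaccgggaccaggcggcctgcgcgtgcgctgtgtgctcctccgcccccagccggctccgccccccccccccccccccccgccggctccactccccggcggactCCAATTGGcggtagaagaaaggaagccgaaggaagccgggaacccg

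In Psmb5 the match to TGACNNNGC is TGACGTCGC and begins 47 bases before the start, and in Psmb6 it is TGACGGAGC and begins 9 bases before it. In Psmd14 a forward and a reverse CCAAT overlap just after the start, and a further reverse one lies upstream. The Psmd4 window holds CCAAT 3 times and CCGGAAG once, as capitals show, where a reverse CCAAT reads ATTGG. Of the members, 39 matched a RefSeq promoter by symbol, with 42 windows in all, and the letters were chosen with these windows in view. TGACNNNGC occurred in 14.3% of the 42 windows, compared with 12.4% of all 32851 windows. CCAAT occurred in 33.3%, compared with 37.4%, and TGACGTCA in 0 windows, compared with 1.79%. CCGGAAG occurred in 38.1%, compared with 8.86% of all windows, among them windows of Psmc1, Psmc2, Psmc6, Psmd2, Psmd11, Psmd13, Psme3 and Psme4. Members with a CCGGAAG had a median log2 fold change of 0.15, and those without one 0.16. For TGACNNNGC these medians were 0.13 and 0.16, and for CCAAT 0.16 and 0.15. A match is a run of letters and not evidence of binding.

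The 3 immunoproteasome genes, which replace the catalytic subunits in immune cells, are given for comparison. Psmb8, which takes the place of Psmb5, had a log2 fold change of 0.43 (adjusted p = 0.132 in limma). Psmb9, which takes the place of Psmb6, had 0.86 (adjusted p = 0.0814 in limma), and Psmb10, which takes the place of Psmb7, had 0.22 (adjusted p = 0.554 in limma). The groups did not overlap for Psmb8 and Psmb9. None of the 3 passed the test.

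Genes around the proteasome were followed with a list of 31 ubiquitin, shuttle, assembly and regulator genes, of which 30 matched and were tested. In this list 17 had a positive and 13 a negative fold change, with a median of 0.05, and 1 rose and 0 fell in limma, that is 3.33% called, compared with 5.65% of all tested genes. At an unadjusted p under 0.05 there were 7, or 23.3%, compared with 21.3% of all tested genes. The gene that rose was Rps27a, which codes for ubiquitin fused to a ribosomal protein, with log2 values of 9.43, 10.11 and 9.45 in WT and 10.54, 10.19 and 10.69 in AMPK KO. These groups did not overlap, and the log2 fold change was 0.81 (SE 0.19, adjusted p = 0.0252 in limma). Shfm1, which codes for the small cap subunit Sem1, had the largest fold change of the list, 1.41 (SE 0.42, adjusted p = 0.0601 in limma), with log2 values of 4.55, 6.41 and 4.72 in WT and 6.95, 5.78 and 7.17 in AMPK KO. It shows the arrangement of Psmb7, with WT sample 2 high and AMPK KO sample 2 low. Adrm1, which codes for a ubiquitin receptor of the cap and is named here after its values were seen, had the opposite arrangement, with log2 values of 6.60, 5.78 and 6.58 in WT and 5.55, 6.23 and 5.76 in AMPK KO. Its log2 fold change was −0.48 (SE 0.24, adjusted p = 0.262 in limma).

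The most negative fold change of the list was that of Nfe2l2, a factor of the oxidative stress response that also acts on proteasome genes. In log2 units the samples stood at 6.86, 6.30 and 6.33 in WT and 6.01, 5.64 and 5.84 in AMPK KO. All AMPK KO samples were below all WT samples, and the log2 fold change of −0.67 (SE 0.19) had an adjusted p of 0.0521 in limma. Nfe2l1 had a log2 fold change of 0.05 (adjusted p = 0.926 in limma).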

How the data were processed

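CD4 T cell RNA was compared between 3 WT and 3 AMPK KO samples, grouped by the sample labels. The study calls the samples biologically independent, and the labels do not say whether each came from a separate mouse. The p-values measure the spread between these samples. Total RNA (500 ng) went into QuantSeq 3′ libraries. The submitters' processing notes name Bowtie2, bedtools and mm10, and the authors normalized by TMM and CPM. The deposited values are log2 of the normalized value plus 1. Among values of up to 100 reads, 100% were whole read numbers to within 0.1, on which read numbers and depths rest, and intervals cover the spread between samples as limma estimates it.

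Genes with a mean log2 value of at least 1 entered lmFit and eBayes (trend) of limma 3.58.1 in R 4.3.3, with genotype only, two-sided, Benjamini-Hochberg adjustment over 11279 genes and a threshold of 0.05. Fold changes on this scale understate changes of low genes. The script was tested on simulated data. The 14 alternatives were quantile normalization, scaling to reads outside Rn45s, a pseudocount of 0.5, no filter, a mean of at least 3, a replicate block, robust spread, voom on recovered reads, and leaving out each library.

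Members with values in every sample were, by rule, any past the threshold, the catalytic beta subunits, the activators and Psmf1, and the largest and smallest fold change of each role. Psme2b was added to these as a copy of Psme2. Members and lists were chosen with earlier results of these data known. Gene positions came from GENCODE M21 and promoters from RefSeq (GRCm38.p6). Protein sequences were not used here.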

Additional observations from a re-analysis of the deposited data

How the results depend on the processing

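Of 250 recomputed fold changes of the 18 members named by rule, 237 kept their direction and their side of the threshold. Of 98 recomputed medians, 88 moved by no more than the within-group SD of the median log2 level of the same genes. This SD is a spread of levels and not of fold changes, from 0.030 for the activators and Psmf1 to 0.29 for the assembly factors. The replicate block and robust spread cannot change a fold change or median in this design, so their agreement there was fixed in advance. The number of all tested genes called was 637, and it was 308 without the filter, 102 with a replicate block and 127 to 1246 with 1 library left out. The replicate block left 0 members called. Whether the replicate numbers pair the samples is not known, as the labels do not say. The correlations of same-numbered deviations were −0.08, −0.32 and −0.16, but deviations from group means also hold library-wide differences and cannot settle this. With 1 library left out, 0 to 5 members were called higher and 0 to 1 lower, all of these calls coming without WT sample 2 or AMPK KO sample 2. The median log2 fold change of all members, 0.17, was 0.10 when scaled to reads outside Rn45s and 0.11 to 0.22 with 1 library left out. With 1 library left out, the median was 0.11 to 0.25 for the alpha ring, 0.050 to 0.29 for the beta ring, −0.16 to 0.12 for the ATPases, 0.055 to 0.21 for the other cap subunits, 0.11 to 0.29 for the assembly factors and 0.20 to 0.28 for the activators and Psmf1, so that the order of the roles changed. Scaled to reads outside Rn45s it was −0.062 for the ATPases and 0.21 for the activators and Psmf1, and after quantile normalization 0.062 for the assembly factors. Scaling to reads outside Rn45s moved the median of all tested genes from 0.02 to −0.05. With 1 library left out, the log2 fold change changed sign in 16 of 46 members, none of them over 0.20 in size with all libraries. Among members with values by sample it was 0.034 for Psma4 and 0.054 for Psmb11 without WT sample 1, −0.0020 for Psmb6 without WT sample 2, −0.16 for Psmb5 and −0.13 for Psmb6 without AMPK KO sample 2, and 0.015 for Psmd9 without AMPK KO sample 1. The other ends of the ranges with 1 library left out were −0.16 for Psma4, −0.27 for Psmb11, 0.29 for Psmb6, 0.30 for Psmb5 and −0.40 for Psmd9. The cause of these changes was not tested. Psma8, with 0 to 7 reads, was too low to compare at this depth.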
